A study of Rattus norvegicus with 24 samples.

Results

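A set of 185 genes had lower mean levels with desisobutyryl ciclesonide and with dexamethasone than with vehicle in lung and also in liver of newborn rats. These members were chosen by a rule on the measured values: a fold of at most 1/1.4 against vehicle in all 4 comparisons of a drug with vehicle, and a mean of at least 2 CPM in both vehicle groups. CPM is a gene's count over the sum of gene counts of its library, scaled to 1000000. The fold was the drug mean plus 0.5 CPM, divided by the vehicle mean plus 0.5 CPM, with means over 4 libraries. Of 30560 gene identifiers in the count files, 10878 reached the minimum in both vehicle groups, and the 185 members came from these.

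RNA was sequenced from whole lung and whole liver of wild-type (WT) Sprague Dawley pups at postnatal day 6. The pups had received desisobutyryl ciclesonide at 1.25 mg/kg, dexamethasone at 0.1 mg/kg or vehicle (2.5% ethanol), given under the skin on 5 successive days from postnatal day 1, and organs were collected 24 hours after the last dose. There were 24 libraries in 6 groups of 4. The doses of the drugs differed, so every comparison between them is between treatments as dosed. The labels give neither litter, sex nor source of each replicate, so a p-value here measures only how these libraries scatter, which may be technical.

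Both drugs are synthetic glucocorticoids: desisobutyryl ciclesonide is the active form into which the inhaled prodrug ciclesonide is converted, and dexamethasone acts as given. They bind the glucocorticoid receptor, a transcription factor of the nuclear receptor family that is present in most cell types. The bound receptor lowers some genes by interfering with other transcription factors such as NF-kB and AP-1 and by recruiting co-repressors, and glucocorticoids also shift growth and maturation in the newborn lung and liver. In whole tissue, fewer cells of a type and less RNA per cell cannot be told apart.

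The count files name genes by Ensembl identifier alone, and none of the 30560 identifiers matched the RefSeq tables at hand. The members are therefore given by identifier, without a role, a position or a sequence, and neither pathway lists nor tissue markers could be read against the data. The sum of gene counts ranged from 15839958 to 27881158 per lung library and from 15397992 to 26194384 per liver library. Unaligned reads were 1.08% ± 0.158 of the entries in lung with desisobutyryl ciclesonide, 2.66% ± 0.706 with dexamethasone and 2.64% ± 0.286 with vehicle (SD, n = 4 each). In liver they were 1.10% ± 0.258, 2.20% ± 0.227 and 2.69% ± 0.522 in the same order of treatments. This difference runs with desisobutyryl ciclesonide in both tissues, and its part in the results cannot be told apart from the drug. In lung, dexamethasone replicates 3 and 4 stood apart by 41 genes that exceeded all remaining lung libraries at least 4-fold. That 0 of these were members is fixed by the choice, since such a gene has a dexamethasone mean above vehicle. It does not show that the members are untouched in these libraries.

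Against vehicle, the members had a median log2 fold of -0.72 in lung with desisobutyryl ciclesonide and -1.26 in lung with dexamethasone. In liver the medians were -0.65 with desisobutyryl ciclesonide and -1.24 with dexamethasone. These folds chose the members and are given as a description, and in each tissue both drugs were set against the same vehicle libraries. Over all 10878 genes at the minimum CPM the medians were -0.12, -0.15, -0.05 and -0.24 in the same order. The lowest member fold was -2.85 in lung with desisobutyryl ciclesonide, -5.92 in lung with dexamethasone, -2.94 in liver with desisobutyryl ciclesonide and -4.34 in liver with dexamethasone. At or under 1/2 of the vehicle level were 41 members in lung with desisobutyryl ciclesonide, 120 in lung with dexamethasone, 27 in liver with desisobutyryl ciclesonide and 123 in liver with dexamethasone. Levels at or under 1/4 were reached by 5, 35, 3 and 36 members in that order.

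**Figure D1:**
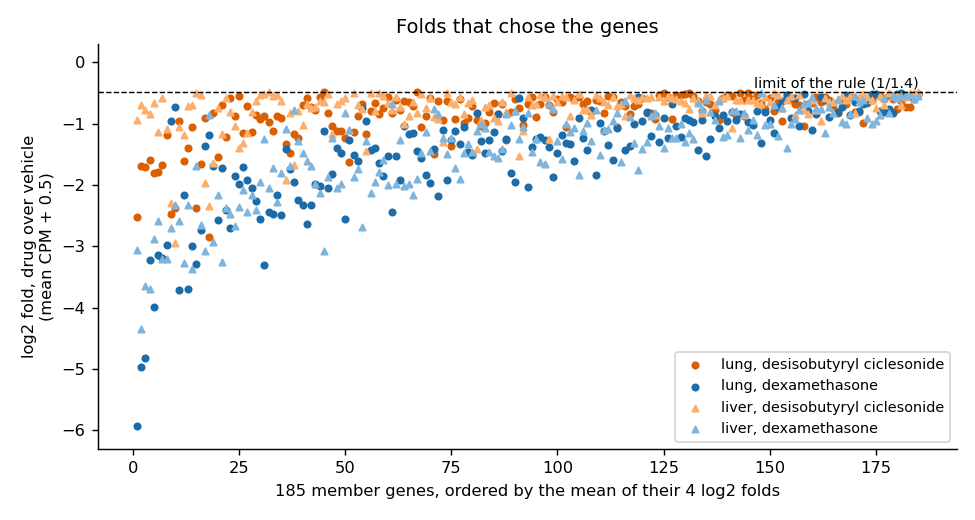
Log2 fold of drug over vehicle (vertical axis, on mean CPM + 0.5) of the 185 members, ordered along the horizontal axis by the mean of their 4 folds, with circles for lung, triangles for liver, orange for desisobutyryl ciclesonide and blue for dexamethasone. The dashed line is the limit of 1/1.4, under which all points lie by choice, and the dexamethasone points reach farther down, to -5.92 in lung and -4.34 in liver.

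The liver response to desisobutyryl ciclesonide limited membership more than any other comparison. Its share of genes at or under 1/1.4 was the smallest, 991 of 10878 (9.11%), against 1501 (13.8%) in lung with the same drug. With dexamethasone 3230 genes (29.7%) in lung and 3783 (34.8%) in liver were at or under 1/1.4. The members made up 18.7% of the 991 genes, 12.3% of the 1501, 5.73% of the 3230 and 4.89% of the 3783. In 94 members the weakest of the 4 folds was that of liver with desisobutyryl ciclesonide, in 56 lung with desisobutyryl ciclesonide, in 18 lung with dexamethasone and in 17 liver with dexamethasone. Genes that met every condition but one were most numerous for liver with desisobutyryl ciclesonide, at 591. Of those 591 genes, 376 were still below vehicle there, with a median log2 fold of -0.12 over all 591. Lung with desisobutyryl ciclesonide alone kept out 155 genes, lung with dexamethasone 56 and liver with dexamethasone 45. The converse rule, at least 1.4-fold above vehicle in all 4 comparisons, was met by 72 genes. The balance between the 2 rules depends on the scaling: with library sizes scaled within each tissue by the trimmed mean of M-values (TMM), 110 genes met the rule and 93 the converse.

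The threshold cut through a continuous range of folds. The 3 members just inside it had weakest folds of 0.7141, 0.7136 and 0.7135. The 3 genes just outside it had 0.7162, 0.7163 and 0.7166, all in lung with dexamethasone. At the strong end, 7 members were at or under 1/2 of vehicle in all 4 comparisons, and 31 members were so in none. The 7 had log2 folds of -1.79 to -1.03 in lung with desisobutyryl ciclesonide, -3.15 to -1.27 in lung with dexamethasone, -1.92 to -1.09 in liver with desisobutyryl ciclesonide and -3.28 to -1.09 in liver with dexamethasone. One of the 7, ENSRNOG00000010805, owes its place to a single library and is named after its values were seen. In lung it had 39.97, 21.6, 34.1 and 46.2 CPM with desisobutyryl ciclesonide, 20.2, 26.1, 39.6 and 46.6 CPM with dexamethasone, and 4.72, 10.4, 332 and 10.4 CPM with vehicle. Vehicle replicate 3 lay far above every drug library and the other 3 vehicle libraries lay below all of them. Without that replicate the lung log2 folds of ENSRNOG00000010805 were 2.00 with desisobutyryl ciclesonide and 1.90 with dexamethasone, the opposite direction. The lung folds of ENSRNOG00000004882 also turned to 0.16 and 0.13 without the same vehicle library. Leaving out each of the 24 libraries in turn, 78 members met the rule every time, 107 missed it at least once, and these 2 had a fold over 1. Levels at or under 1/2 in both tissues were seen for 13 members with desisobutyryl ciclesonide and 91 with dexamethasone.

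Together the members took 0.713% ± 0.103 of gene counts in lung with desisobutyryl ciclesonide, 0.440% ± 0.0331 with dexamethasone and 1.28% ± 0.0212 with vehicle (SD, n = 4 each). In liver they took 0.194% ± 0.0273 with desisobutyryl ciclesonide, 0.131% ± 0.00991 with dexamethasone and 0.319% ± 0.0190 with vehicle. The members were thus a minor part of the RNA of both tissues. The 10 members with the most counts held 46.2% of the members' summed CPM in vehicle lung and 41.4% in vehicle liver.

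Library by library, the members' mean log2 level relative to the vehicle mean was -0.66, -0.79, -0.99 and -1.19 in lung with desisobutyryl ciclesonide. It was -1.47, -1.72, -1.37 and -1.51 in lung with dexamethasone and between -0.07 and 0.02 in vehicle lung. Every desisobutyryl ciclesonide library of lung lay between the dexamethasone and the vehicle libraries, with no overlap. In liver the values were -0.62, -0.65, -0.93 and -1.03 with desisobutyryl ciclesonide, -1.41, -1.64, -1.44 and -1.42 with dexamethasone, and between -0.15 and 0.02 with vehicle. The order of the groups was the same as in lung, again with no overlap. In both tissues the members were chosen on the means of these libraries, so drug libraries below vehicle follow from the rule and carry no weight. Between 181 and 185 members were below the vehicle mean in each drug library. At or under 1/1.4 of that mean were 120, 146, 171 and 180 members in lung with desisobutyryl ciclesonide and 171 to 179 with dexamethasone, against 3 to 7 in vehicle lung. In liver the counts were 112, 110, 167 and 178 with desisobutyryl ciclesonide and 169 to 180 with dexamethasone, against 4 to 20 with vehicle. These counts per library only describe the members, since no share of all 10878 genes is given beside them. On group means, 9.11% (liver, desisobutyryl ciclesonide) to 34.8% (liver, dexamethasone) of all 10878 genes were at or under 1/1.4. The replicates of desisobutyryl ciclesonide numbered 3 and 4 were lower than those numbered 1 and 2 in both tissues, and dexamethasone replicate 2 was the lowest of its group in both. The median of all 10878 genes moved less: in liver with desisobutyryl ciclesonide it was 0.02, 0.01, -0.11 and -0.19 in replicates 1 to 4, and its part in the members' values was not tested.

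**Figure D2:**
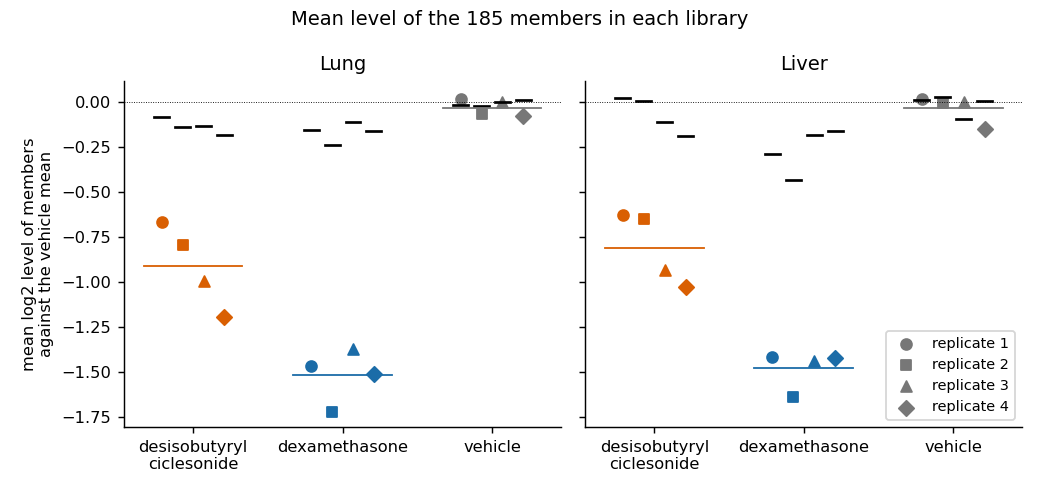
Mean log2 level of the 185 members in each library relative to the vehicle mean (points), by treatment, for lung (left) and liver (right), with the group mean as a coloured line and the median of all 10878 genes in the same library as a black dash. The 8 dexamethasone libraries are at -1.72 to -1.37, the 8 desisobutyryl ciclesonide libraries at -1.19 to -0.62 and the 8 vehicle libraries at -0.15 to 0.02. The members were chosen to be lower than vehicle with both drugs.

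The members also varied more between replicates than other genes did. Their median coefficient of variation in lung was 18.8% with desisobutyryl ciclesonide, 21.1% with dexamethasone and 11.3% with vehicle, against 10.2%, 15.0% and 9.35% for all genes at the minimum CPM. In liver it was 23.1%, 28.3% and 19.9%, against 15.3%, 19.2% and 15.3%. Lower counts give a higher coefficient, and the members' lower levels were not matched here.

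The member with the lowest mean of the 4 folds was ENSRNOG00000008040. In lung it had 13.5, 7.93, 5.49 and 4.23 CPM with desisobutyryl ciclesonide, 0.316, 0, 0.426 and 0.395 CPM with dexamethasone, and 49.9, 47.5, 40.8 and 50.0 CPM with vehicle. In liver it had 1.68, 2.24, 2.69 and 1.15 CPM with desisobutyryl ciclesonide, 0.195, 0, 0.0428 and 0 CPM with dexamethasone, and 4.13, 4.89, 4.68 and 3.05 CPM with vehicle. The 3 treatments did not overlap in either tissue, and the gene was nearly silent in all 8 dexamethasone libraries. The log2 folds of ENSRNOG00000008040 against vehicle were -2.52 and -5.92 in lung, and -0.94 and -3.07 in liver, with desisobutyryl ciclesonide and dexamethasone in that order. Because 0.5 CPM was added to each mean, a fold understates the difference where the drug mean is near 0.

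The second was ENSRNOG00000034190. It had 9.34, 19.1, 3.78 and 2.53 CPM in lung with desisobutyryl ciclesonide, 0.904, 0.159, 0.256 and 0.430 CPM with dexamethasone, and 45.3, 28, 19.4 and 23.2 CPM with vehicle. Liver libraries had 10.5, 23.5, 8.77 and 10.5 CPM with desisobutyryl ciclesonide, 0.455, 0.432, 0.899 and 0.624 CPM with dexamethasone, and 39.5, 23.3, 13.6 and 11.1 CPM with vehicle. All 8 dexamethasone libraries were under 1 CPM, while in liver the desisobutyryl ciclesonide and vehicle libraries overlapped. The log2 fold of ENSRNOG00000034190 in liver with desisobutyryl ciclesonide was -0.70 over 4 libraries per group. It was -0.26 without vehicle replicate 1, at which the gene would miss the rule, and -1.10 without desisobutyryl ciclesonide replicate 2.

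**Figure D3:**
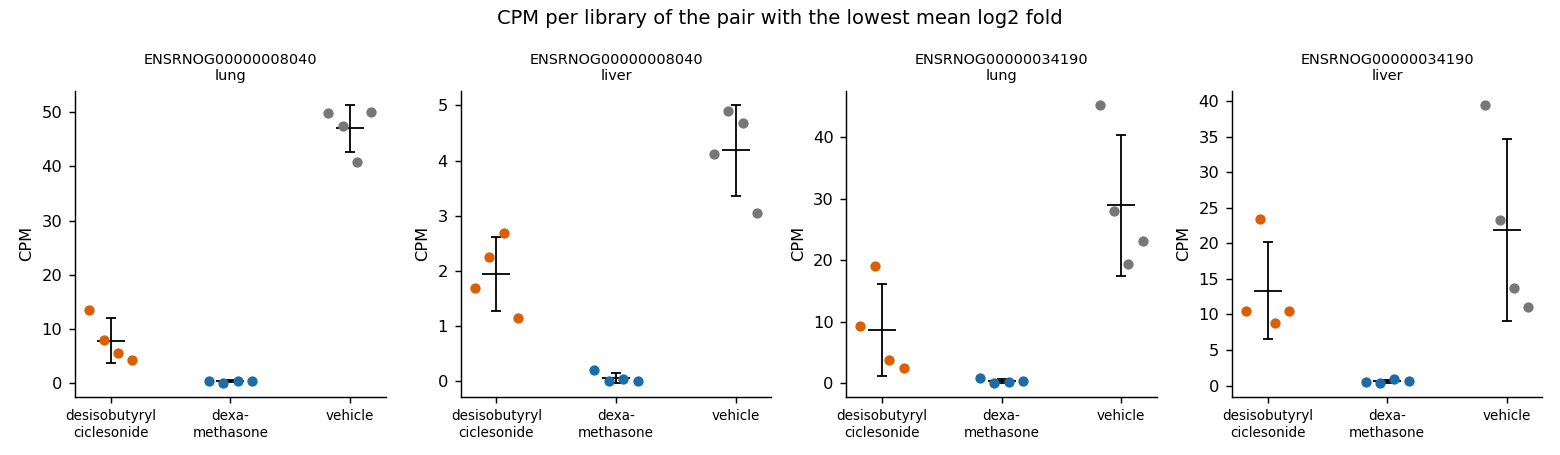
CPM in every library of the 2 members with the lowest mean of the 4 log2 folds, ENSRNOG00000008040 and ENSRNOG00000034190, by tissue and treatment (points), with the group mean and SD. Dexamethasone libraries are at or under 0.904 CPM for both, and desisobutyryl ciclesonide libraries overlap vehicle for ENSRNOG00000034190 in liver, where replicate 2 reached 23.5 CPM.

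A test per gene against vehicle with edgeR's quasi-likelihood test, adjusted over all genes by Benjamini-Hochberg at 0.05, uses the contrasts of the rule, so its calls are counted here without weight. In lung, 135 members were called lower with desisobutyryl ciclesonide, where 12.3% of all genes tested were, and 176 with dexamethasone, where 28.7% were. In liver, 44 members were called lower with desisobutyryl ciclesonide, where 2.43% of all genes tested were, and 156 with dexamethasone, where 24.9% were. Called lower in all 4 comparisons were 29 members, in exactly 3 comparisons 98, in 2 comparisons 45, in 1 comparison 11 and in none 2. No such joint count over all genes is given. The lower mean in liver with desisobutyryl ciclesonide thus passed the test for a minority of members, and that count rests on the replicates used. Without liver desisobutyryl ciclesonide replicate 4 it was 18 members in place of 44, without replicate 3 of that group 23 and without replicate 2 of that group 28. Without liver vehicle replicate 3 it was 19, without liver vehicle replicate 2 it was 22, and with the replicate number as a block it was 29. DESeq2 called 84 members there.

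Overlap with the vehicle libraries was counted on the values that chose the members, so an excess over other genes is fixed by the rule and carries no weight. All 4 desisobutyryl ciclesonide libraries lay below all 4 vehicle libraries for 168 members in lung, against 29.2% of all 10878 genes. The same held for 113 members in liver, against 9.74% of genes. For dexamethasone it held for 175 members in lung, against 35.7% of genes, and for 171 in liver, against 32.9%. Complete separation in all 4 comparisons was seen for 99 members, so for the others the label of lower in both tissues with both drugs rests on means whose libraries overlap in at least 1 comparison. No share of all 10878 genes is given for separation in all 4 comparisons.

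Across members, the size of the response in lung and in liver went together more with dexamethasone than with desisobutyryl ciclesonide. Over 185 members the log2 folds of lung and liver had Pearson r = 0.64 and Spearman rho = 0.54 with dexamethasone, and r = 0.49 and rho = 0.26 with desisobutyryl ciclesonide. These values describe the members, which were cut at 1 threshold in both tissues, and libraries of the tissues with the same number deviated together, as from the same pups. Folds with desisobutyryl ciclesonide lay in a narrower range next to that threshold. Their quartiles in liver were -0.83 and -0.57, against -1.87 and -0.84 with dexamethasone. In lung they were -0.95 and -0.60, against -1.84 and -0.87. What this range does to r and rho was not tested, so no weight is put on the difference between the drugs. The fold was lower in lung than in liver, a stronger fall, for 109 of 185 members with desisobutyryl ciclesonide and for 93 with dexamethasone. Spearman rho of log2 fold with vehicle CPM across the 185 members, where vehicle CPM is also the divisor of the fold, was 0.08 in lung with desisobutyryl ciclesonide, -0.09 in lung with dexamethasone, 0.19 in liver with desisobutyryl ciclesonide and -0.01 in liver with dexamethasone.

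The rule asked both drugs to lower a gene but set no order between them, and the difference between the drugs was tested directly on the same libraries. Most members were higher with desisobutyryl ciclesonide than with dexamethasone. In lung 98 members were called higher with desisobutyryl ciclesonide (25% of all genes tested) and 5 lower (24.4% of all genes). In liver 75 members were called higher (23.8% of all genes) and 3 lower (22.5% of all genes), by edgeR's quasi-likelihood test with Benjamini-Hochberg adjustment over all genes. As shares of the 185 members these are 53.0% and 2.70% in lung, and 40.5% and 1.62% in liver. The members were chosen on the same group means as genes lowered by both drugs, and dexamethasone lowered more genes than desisobutyryl ciclesonide did, while the background also holds raised genes. The difference in direction between members and all genes is therefore a description, and no weight is put on it.

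The median log2 difference, desisobutyryl ciclesonide minus dexamethasone, was 0.48 over the members and 0.02 over all genes tested in lung, and 0.44 over the members and 0.0028 over all genes in liver. By group means, 151 members in lung and 152 in liver were lower with dexamethasone, 134 of them in both tissues, and 16 were lower with desisobutyryl ciclesonide in both tissues. Such counts by group means only describe the members, since no share of all genes stands beside them and dexamethasone lowered more genes. The test called 60 members in both tissues, 43 in lung alone, 18 in liver alone and 64 in neither. Of the 60, 58 were higher with desisobutyryl ciclesonide in both tissues, 1 was lower in both and 1 had opposite directions. No share of all genes called in both tissues is given beside these counts, so they only describe the members. For the 82 members with no call in lung, the median half-width of the 95% interval of the log2 difference was 0.39, and for the 107 in liver it was 0.52. These members are not shown to respond alike to the drugs.

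**Figure D4:**
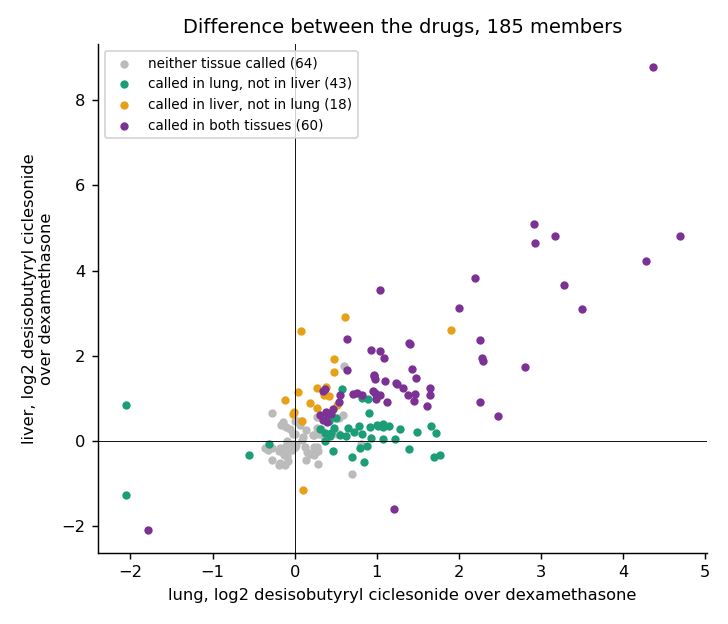
Log2 difference between the drugs, desisobutyryl ciclesonide minus dexamethasone, for each member in liver (vertical axis) against lung (horizontal axis), coloured by the tissue in which it was called. Most points lie above 0 on both axes (medians 0.48 in lung and 0.44 in liver), and the point at the top, ENSRNOG00000019660, is a fitted value against a group without counts.

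The members named for the largest called differences include ENSRNOG00000008040, given above, with a log2 difference of 4.69 ± 0.475 (SE) in lung and an edgeR adjusted p of 1.23e-05. In liver its difference was 4.82 ± 0.615 (SE), with an edgeR adjusted p of 2.45e-05. ENSRNOG00000034190 differed by 4.29 ± 0.723 (SE) in lung and 4.22 ± 0.486 (SE) in liver, with edgeR adjusted p = 0.000594 and 2.52e-05. For both genes all 4 desisobutyryl ciclesonide libraries of each tissue lay above all 4 dexamethasone libraries.

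ENSRNOG00000019660 was the 1 member without a count in some group. Its liver values were 2.67, 6.67, 1.99 and 1.22 CPM with desisobutyryl ciclesonide, 0 in all 4 dexamethasone libraries, and 11.2, 7.34, 2.84 and 2.59 CPM with vehicle. Against a floor of 3 counts over the dexamethasone group, the gene was at least 73.0-fold higher with desisobutyryl ciclesonide (228 counts) and at least 148-fold higher in vehicle liver (412 counts), with counting error alone covered. The edgeR adjusted p between the drugs was 0.000480. In lung ENSRNOG00000019660 had 1.41, 2.54, 0.793 and 0.126 CPM with desisobutyryl ciclesonide, 0.136, 0, 0.0852 and 0 CPM with dexamethasone, and 6.28, 3.86, 4.25 and 4.33 CPM with vehicle. The lung difference between the drugs was 4.37 ± 0.870 (SE, edgeR adjusted p = 0.00117), and the lowest desisobutyryl ciclesonide library lay below the highest dexamethasone library.

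ENSRNOG00000011917 showed the same order in liver, with 1.22, 4.26, 1.05 and 0.878 CPM with desisobutyryl ciclesonide, 0, 0.0540, 0 and 0.113 CPM with dexamethasone, and 7.53, 4.95, 3.84 and 1.67 CPM with vehicle. Its dexamethasone group held 3 counts, against 136 with desisobutyryl ciclesonide, a depth-scaled ratio of 43.6 with a 95% exact binomial interval of 14.6 to 214 that covers counting error only. The desisobutyryl ciclesonide and vehicle libraries of liver overlapped. The edgeR adjusted p of the ENSRNOG00000011917 difference was 0.000322. In ENSRNOG00000034190, ENSRNOG00000019660 and ENSRNOG00000011917, desisobutyryl ciclesonide replicate 2 was the highest library of its group in both tissues.

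A few members were lower with desisobutyryl ciclesonide than with dexamethasone. ENSRNOG00000068496 was the 1 member called so in both tissues. In lung it had 3.60, 3.97, 5.55 and 3.91 CPM with desisobutyryl ciclesonide, 21.4, 16.4, 14.1 and 6.28 CPM with dexamethasone, and 31.3, 29.3, 34.9 and 39.3 CPM with vehicle. In liver it had 1.27, 1.21, 0.935 and 0.764 CPM with desisobutyryl ciclesonide, 5.97, 2.11, 4.88 and 2.50 CPM with dexamethasone, and 6.40, 6.09, 7.85 and 9.15 CPM with vehicle. The desisobutyryl ciclesonide libraries were the lowest 4 in both tissues. The log2 difference of ENSRNOG00000068496 was -1.78 ± 0.305 (SE, edgeR adjusted p = 0.000433) in lung and -2.08 ± 0.333 (SE, edgeR adjusted p = 0.000153) in liver.

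ENSRNOG00000062356 had 0.684, 1.12, 0.305 and 0.505 CPM in lung with desisobutyryl ciclesonide, 4.07, 3.28, 2.39 and 1.4 CPM with dexamethasone, and 8.45, 6.35, 5.38 and 3.29 CPM with vehicle. Its log2 difference between the drugs in lung was -2.06 ± 0.450 (SE, edgeR adjusted p = 0.00210). Liver values were 0.406, 0.806, 0.292 and 0.191 CPM with desisobutyryl ciclesonide, 0.325, 0.378, 0.0428 and 0.0567 CPM with dexamethasone, and 3.83, 5.12, 3.34 and 3.85 CPM with vehicle. There the drugs overlapped and the difference was not called (edgeR adjusted p = 0.277).

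ENSRNOG00000069200 was lower in lung with desisobutyryl ciclesonide, at 0.547, 1.94, 0.488 and 0.947 CPM, than with dexamethasone, at 7.27, 4.87, 3.20 and 1.18 CPM, and vehicle libraries had 12.6, 6.21, 5.49 and 4.51 CPM. Its log2 difference between the drugs was -2.06 ± 0.592 (SE, edgeR adjusted p = 0.0119), although desisobutyryl ciclesonide replicate 2 lay above dexamethasone replicate 4. In liver ENSRNOG00000069200 averaged 0.326 ± 0.276 CPM with desisobutyryl ciclesonide, 0.765 ± 0.498 CPM with dexamethasone and 5.83 ± 2.11 CPM with vehicle (SD, n = 4 each). The liver difference was not called (edgeR adjusted p = 0.0926).

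ENSRNOG00000030800 was the member called in opposite directions. In lung it had 1.91, 1.68, 0.854 and 0.821 CPM with desisobutyryl ciclesonide, 0.542, 0.477, 0.383 and 0.861 CPM with dexamethasone, and 3.40, 4.59, 3.12 and 3.29 CPM with vehicle. In liver it had 0.927, 0.748, 0.351 and 0.420 CPM with desisobutyryl ciclesonide, 1.23, 2.54, 0.514 and 2.04 CPM with dexamethasone, and 3.41, 3.02, 2.28 and 3.51 CPM with vehicle. In each tissue 1 dexamethasone library lay on the far side of some desisobutyryl ciclesonide libraries, and the others were apart. The log2 difference of ENSRNOG00000030800 was 1.21 ± 0.366 (SE, edgeR adjusted p = 0.0146) in lung and -1.60 ± 0.468 (SE, edgeR adjusted p = 0.0113) in liver.

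Whether the drug difference itself differed between tissues was tested over all 24 libraries, as the lung difference less the liver difference, without pairing the tissues by replicate number. This test was added after the data were seen. It called 16 members higher (10.7% of all genes tested) and 15 lower (13.8% of all genes), by edgeR's quasi-likelihood test with Benjamini-Hochberg adjustment. The value was -2.97 ± 0.794 (SE, edgeR adjusted p = 0.00848) for ENSRNOG00000062356 and 2.75 ± 0.604 (SE, edgeR adjusted p = 0.00194) for ENSRNOG00000030800. For ENSRNOG00000068496 it was 0.25 (edgeR adjusted p = 0.743) and for ENSRNOG00000069200 -0.83 (edgeR adjusted p = 0.550). A call in 1 tissue alone is not a called difference between the tissues, and that of ENSRNOG00000069200 in lung is an example.

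The vehicle libraries show the members' levels in pups given no steroid. The members' median vehicle mean was 25.5 CPM in lung (quartiles 12.7 and 61.8, highest 1604 CPM) and 7.48 CPM in liver (quartiles 4.21 and 14.9, highest 377 CPM). Over all 10878 genes the medians were 41.5 CPM in lung and 17.6 CPM in liver. Under 10 CPM in vehicle were 34 members in lung and 113 in liver, and over 100 CPM were 25 in lung and 4 in liver. On CPM without further scaling 94.1% of members were higher in lung than in liver, against 84.3% of all 10878 genes, and the median log2 ratio of lung over liver was 1.43 for members and 1.17 for all these genes. The 10 genes with the most counts took 29.7% to 31.6% of gene counts in vehicle liver libraries and 6.53% to 7.66% in vehicle lung libraries. A larger share of this kind lowers the CPM of the rest, and how much of the ratio it makes up was not tested.

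With TMM scaling, 77 members were called higher in lung than in liver among vehicle libraries (38.9% of all genes tested) and 48 lower (35.4% of all genes), and 60 were not called. The test did not pair lung and liver by replicate number. Among the 10878 genes that could become members, 32% were called higher and 41.2% lower, and the members' shares were 41.6% and 25.9%. The direction of a member with a moderate difference between tissues therefore depends on the scaling.

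ENSRNOG00000058645 had the highest vehicle level of any member in lung, with 1638, 1804, 1475 and 1498 CPM, against 6.04, 11.2, 9.64 and 3.11 CPM in vehicle liver. With TMM scaling the log2 difference of lung minus liver was 6.41 ± 0.362 (SE, edgeR adjusted p = 3.78e-08). This difference, like those of the next 3 genes, is not the log2 ratio of the unscaled CPM values beside it. In lung it averaged 609 ± 227 CPM with desisobutyryl ciclesonide, 123 ± 26.2 CPM with dexamethasone and 1604 ± 152 CPM with vehicle (SD, n = 4 each). In liver it averaged 4.38 ± 0.658 CPM with desisobutyryl ciclesonide, 1.08 ± 1.18 CPM with dexamethasone and 7.48 ± 3.62 CPM with vehicle. The lower mean with both drugs in both tissues was required by the rule. In liver, where the vehicle mean of ENSRNOG00000058645 was under 10 CPM, the desisobutyryl ciclesonide and vehicle libraries overlapped.

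ENSRNOG00000017416 averaged 287 ± 8.72 CPM in vehicle lung and 11.0 ± 1.83 CPM in vehicle liver (SD, n = 4 each). Its TMM-scaled log2 difference was 3.36 ± 0.139 (SE, edgeR adjusted p = 6.19e-10). In lung it had 209, 170, 194 and 159 CPM with desisobutyryl ciclesonide, 141, 119, 139 and 103 CPM with dexamethasone, and 299, 285, 283 and 279 CPM with vehicle. The 3 treatments did not overlap in lung.

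Of the members higher in liver, ENSRNOG00000005705 averaged 8.85 ± 1.06 CPM in vehicle lung and 54.0 ± 13.2 CPM in vehicle liver (SD, n = 4 each). Its TMM-scaled log2 difference was -3.94 ± 0.174 (SE, edgeR adjusted p = 1.15e-09). In liver it had 21.9, 23.1, 9.93 and 13.3 CPM with desisobutyryl ciclesonide, 8.57, 7.72, 5.48 and 4.82 CPM with dexamethasone, and 55.5, 71.5, 48.5 and 40.4 CPM with vehicle. Again the 3 treatments did not overlap.

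ENSRNOG00000017286 averaged 27.7 ± 11.0 CPM in vehicle lung and 198 ± 90.1 CPM in vehicle liver (SD, n = 4 each). Its TMM-scaled log2 difference was -4.18 ± 0.493 (SE, edgeR adjusted p = 7.72e-05). In liver it had 154, 17.1, 56.8 and 105 CPM with desisobutyryl ciclesonide, 161, 119, 78.4 and 135 CPM with dexamethasone, and 162, 277, 266 and 87.8 CPM with vehicle. In lung it had 29.3, 2.97, 16.2 and 18.8 CPM with desisobutyryl ciclesonide, 13.1, 5.61, 8.52 and 14.0 CPM with dexamethasone, and 30.01, 28.5, 39.3 and 12.9 CPM with vehicle. Its libraries overlapped between treatments in both tissues, and desisobutyryl ciclesonide replicate 2 was the lowest of its group in both, so its membership rests on means of widely spread values.

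**Figure D5:**
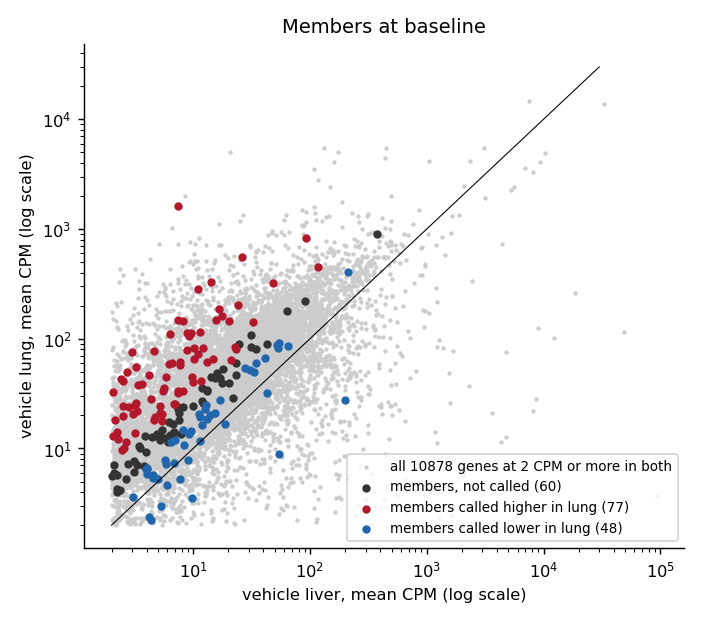
Mean vehicle CPM of each member in lung (vertical axis) against liver (horizontal axis), both on log scales, coloured by the TMM-scaled test of lung minus liver, with all 10878 genes at the minimum CPM in grey and the line of equal CPM. Members reach 1604 CPM in lung and 377 CPM in liver, and those called lower in lung (48) lie on both sides of the line while those called higher (77) lie above it.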

How the data were processed

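Each library has 1 deposited file of raw, unnormalized counts per Ensembl gene, made by the authors. Tools named in the submitters' processing notes, with no version, are HTSeq, HISAT2 and cutadapt, on build mRatBN7.2. Per the labels' protocols the libraries were directional and polyadenylated RNA was selected. The sources used here do not give the strand setting of the counting, so values of antisense, overlapping or near-identical genes are uncertain. The 5 summary rows (16.8% to 31.8% of entries) entered neither library sizes nor tests.

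CPM used the total of gene rows. Tests used edgeR 4.0.16 in R 4.3.3 (default expression filter, TMM, robust quasi-likelihood F-test, Benjamini-Hochberg adjustment over all genes at 0.05) on 12 libraries per tissue with a mean for each treatment, on the 8 vehicle libraries for the tissue difference, and on all 24 for the difference of differences. They were tested on simulated data. Members and lists were chosen with earlier results of these data known. Named members are those with the lowest mean of the 4 log2 folds and the largest called differences each way, at most 2 identifiers each way per comparison for want of gene symbols, plus the members singled out by a count of 1 (ENSRNOG00000030800) or by leaving out a library (ENSRNOG00000010805, ENSRNOG00000004882), chosen after values were seen. Gene lists and marker lists could not be applied without symbols. Alternatives were DESeq2 1.42.0, other scalings, pseudocounts, minimums and thresholds, no expression filter, a replicate block and leaving out libraries.

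Deviations from the group mean went together in 12 of 12 pairs of a lung and a liver library with equal treatment and number (r from 0.153 to 0.360), each best with its own number, so numbers were taken to mark pups across tissues, though the labels do not say so. All 36 replicate pairs differed by more than counting noise, with a chi-square of at least 11.6 per degree of freedom. Intervals and floors cover counting error only.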

Additional observations from a re-analysis of the deposited data

Results flagged for a closer look

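A sample far from the others of its group was looked for in 95 groups of 4 libraries with Dixon's test at 95%, and 8 groups were past it. Chance flags about 1 in 20, but the count cannot be set against that rate. It includes ENSRNOG00000010805 and ENSRNOG00000004882, which were added because of the library that is flagged. ENSRNOG00000034190 had 23.5 CPM in liver desisobutyryl ciclesonide replicate 2, above the other libraries of the group. ENSRNOG00000011917 had 4.26 CPM in the same library, again above the others. ENSRNOG00000058645 had 2.84 CPM in liver dexamethasone replicate 4, above the others. ENSRNOG00000005705 had 7.27 CPM in lung vehicle replicate 1, below the others. In lung vehicle replicate 3, ENSRNOG00000010805 had 332 CPM and ENSRNOG00000004882 had 16.3 CPM, each above the other vehicle libraries, and both genes were named because leaving out that library turned their lung folds. The members' mean log2 level against the vehicle mean was -1.64 in liver dexamethasone replicate 2 and -0.147 in liver vehicle replicate 4, each below the other 3 libraries of its group.

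The difference between the drugs differed between lung and liver by the test over 24 libraries for 2 named members. The lung difference less the liver difference (log2) was -2.97 for ENSRNOG00000062356 and 2.75 for ENSRNOG00000030800. Both are low in the drug groups, where no group mean of either gene is over 3 CPM.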

How the results depend on the processing

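Which genes met the rule depended on the scaling: 110 did with TMM-scaled library sizes (all of them members), 101 with median-of-ratios size factors and 88 with a fold threshold of 1/1.5. With TMM the median log2 fold of all genes moved to -0.03 in lung with desisobutyryl ciclesonide and -0.06 with dexamethasone, and 21 of the 29 members called lower in all 4 comparisons were kept. Relative to the median of all genes, the members' medians without that scaling were -0.60 and -1.11 in lung, and -0.60 and -1.0 in liver, with desisobutyryl ciclesonide and dexamethasone. Pseudocounts of 0.1 and 1 CPM gave 222 and 165 genes, minimums of none and 5 CPM 257 and 125, and medians in place of means 208. Leaving out 1 library gave 153 (without liver desisobutyryl ciclesonide replicate 4) to 227 (without replicate 1 of that group). Without lung dexamethasone replicates 3 and 4, a choice made after the data were seen, it was 188, of which 178 were members.

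Among all genes, 621 were called in liver, desisobutyryl ciclesonide minus vehicle, and 1191 with DESeq2, and leaving out 1 library gave 295 to 836. The members called lower there numbered 18 to 54, against 44. In lung, leaving out 1 library gave 2564 (without desisobutyryl ciclesonide replicate 3) to 4661 genes for desisobutyryl ciclesonide minus vehicle, against 3884. For dexamethasone minus vehicle the ranges were 8122 to 8966 in lung, against 8961, and 5826 to 6568 in liver, against 6522. Members called between the drugs numbered 85 to 108 in lung, against 103, and 66 to 77 in liver, against 78. Members called between vehicle lung and vehicle liver numbered 113 to 123, against 125, and for the difference of differences 25 to 34, against 31. With a pseudocount of 0.1 CPM the dexamethasone log2 folds were -6.94 in lung and -4.75 in liver for ENSRNOG00000008040, and -5.76 and -4.97 for ENSRNOG00000034190. The folds with 0.1 CPM differ from those above only in the constant added to the same means. For the other shifts the cause was not tested. Without lung vehicle replicate 3 the lung folds of 2 members, ENSRNOG00000010805 and ENSRNOG00000004882, turned to above vehicle. In lung with dexamethasone 4337 genes were called higher and 4624 lower than vehicle, against 4724 and 4591 with DESeq2.

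Across treatments within a tissue, the labels give no link between libraries with the same number. Their r was -0.298 to 0.307 in lung, with 6 of 12 best with their own number, and -0.159 to 0.168 in liver, with 2 of 12. In lung 7 of the 12 pairs had r over 0.1, and what such libraries share was not tested. With the replicate number as a block, desisobutyryl ciclesonide minus vehicle gave 3697 genes in lung and 442 in liver, dexamethasone minus vehicle 8932 and 6177, and the drugs differed in 99 and 79 members. With the pup as a replicate block, 126 members differed between vehicle tissues and 35 in the difference of differences. Low members are limited by depth: at 1 CPM a library holds about 15 to 28 counts.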
